A study of Solanum lycopersicum with 12 samples.

Results

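The 10 loci described here are tomato (Solanum lycopersicum) genes of 2 photosynthesis families, 3 listed as RbcS and 7 as Cab, out of 34688 gene loci in the deposited count table. They were chosen by identifier: Solyc02g063150, Solyc03g034220 and Solyc02g085950 for RbcS, Solyc02g070950, Solyc02g070970, Solyc02g070980 and Solyc02g070990 for the Cab cluster of chromosome 2, and Solyc03g005760, Solyc03g005770 and Solyc03g005780 for that of chromosome 3. All 10 were found, once each. The families are those of the rule that chose the loci, because the tables give identifiers without gene names, and 0 of the 10 identifiers occur in the RefSeq gene table used here. Positions and sequences of the loci were not used here.

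RbcS genes encode the small subunit of Rubisco, the chloroplast enzyme that fixes CO2, and Cab genes encode the chlorophyll a/b-binding proteins of the light-harvesting antenna. Both families lie in the nucleus as several copies of similar sequence, and their mRNAs are among the most abundant of green leaves. In plants, Dicer-like enzymes cut small RNAs of set lengths, mainly 21, 22 and 24 nt, whereas pieces of broken transcripts have no set length.

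Small RNA was sequenced from cotyledons, the seed leaves, excised 6 days after sowing (day 0) and from callus, a mass of dividing cells, after 12, 14 or 16 days of such cotyledons on SIM medium. Each of these 4 groups had 3 libraries, and cultures were kept at 25 °C and 70% humidity with 16 h of light at about 50 µmol per m2 and s and 8 h of dark. No genotype, cultivar or added agent other than SIM medium was given in the sources used here. A value here is the number of reads of 18 to 26 nt placed on a gene, given as CPM (counts per 1000000 gene reads of the library), and is not the level of an mRNA. Gene reads ranged from 456744 to 698312 per library. In bulk samples, fewer cells of a type and less RNA per cell cannot be told apart. Nothing in the labels tells separate cultures from repeat libraries of 1 culture, so the spread behind each p-value may be technical. The tissue labels could not be checked against mRNA markers, as the tables hold small RNA reads. Among the callus libraries, day 12 replicate 3, day 14 replicate 1 and day 16 replicate 3, and among those of cotyledon replicate 1, had stood apart from their tissue in an earlier pass over these data. Main values are given with and without them.

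Reads on the RbcS and Cab loci were plentiful in cotyledon and scarce in callus. The 10 loci together had 3673, 3794 and 2731 reads in the cotyledon libraries, which was 0.669%, 0.673% and 0.598% of their gene reads. Callus libraries had 178, 189 and 70 reads (day 12), 115, 413 and 217 reads (day 14) or 95, 129 and 322 reads (day 16). The 9 callus libraries held 0.0119% to 0.0671% of their gene reads there, with a median of 0.0287%. The mean share was 18.8-fold lower in callus, also without the 3 callus libraries that stood apart, and no callus library came near the cotyledon range. The 3 cotyledon libraries lay close together, while the callus libraries differed among themselves by several times. Day 14 replicate 2 and day 16 replicate 3 were the highest callus libraries, and they were the 2 highest for 8 of the 10 loci. Against the recovered library totals in place of gene reads, the 10 loci had 986 to 1239 reads per 1000000 in cotyledon and 17.7 to 86.1 in callus.

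**Figure D1:**
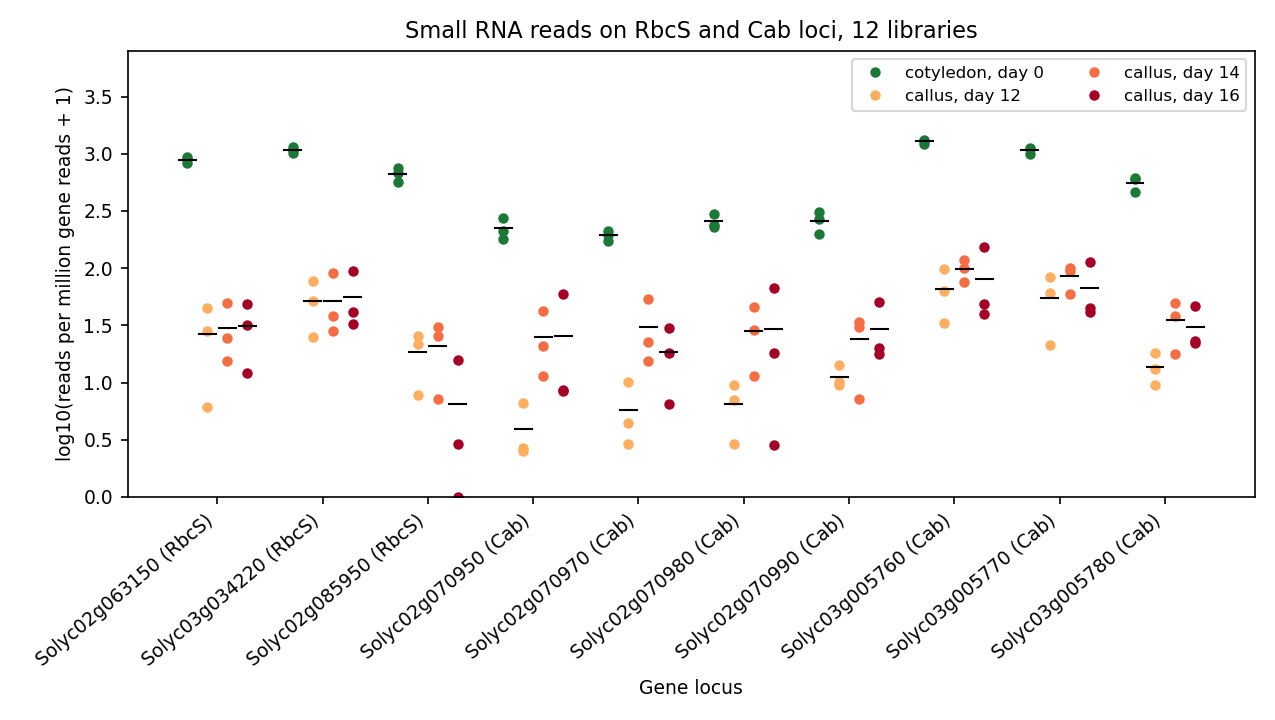
CPM plus 1 on a log10 scale (y axis) for each of the 10 loci (x axis) in the 12 libraries. Points are libraries, coloured by group, and short bars are group means. For every locus the 3 cotyledon libraries lie above the 9 callus libraries.

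The reads had no main length. Of the 11926 reads on the 10 loci over all libraries, the most frequent length, 22 nt, held 13.5%, and the least frequent, 26 nt, held 7.89%. Equal shares of the 9 lengths would be 11.1% each. Reads of all other loci were concentrated at 21 nt (42.3%) and 24 nt (21.5%), with 2.07% at 18 nt. The most frequent length differed from locus to locus: it was 21 nt at Solyc02g063150.3, Solyc02g085950.5, Solyc02g070950.1, Solyc02g070970.1 and Solyc02g070990.1, 22 nt at Solyc02g070980.1 and Solyc03g005760.1, 23 nt at Solyc03g034220.3 and Solyc03g005770.4, and 19 nt at Solyc03g005780.3. That length held between 13.3% of the reads at Solyc03g034220.3 and 19.7% at Solyc02g070990.1.

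**Figure D2:**
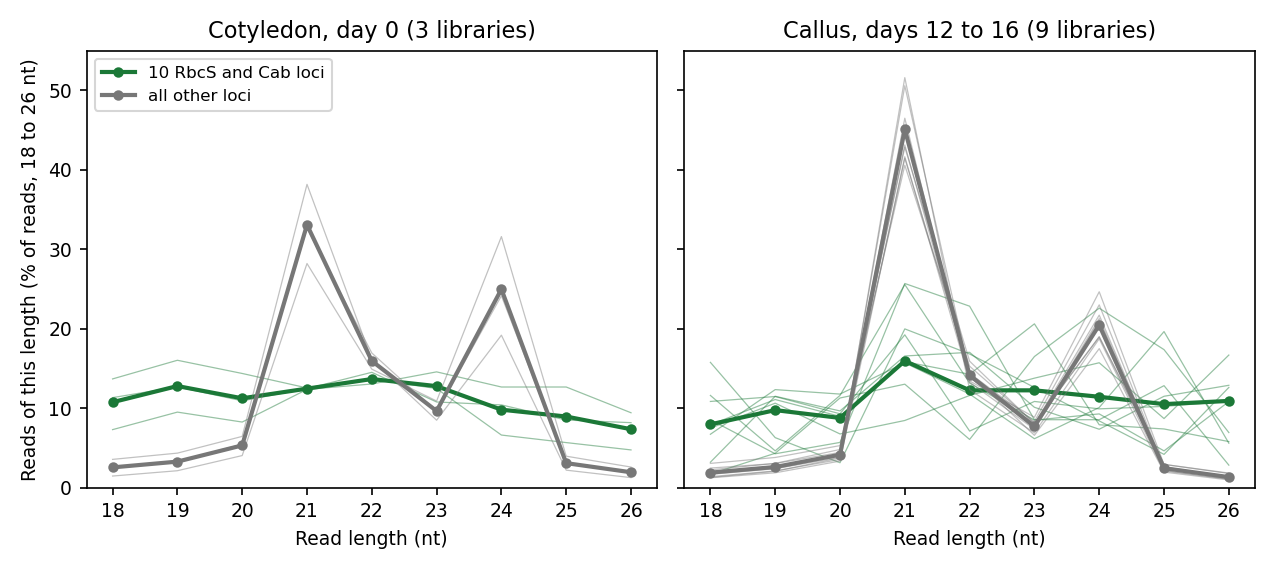
Share of reads (y axis, percent) at each length from 18 to 26 nt (x axis), for the 10 RbcS and Cab loci together and for all other loci. Thick lines pool the libraries of a tissue and thin lines are single libraries. The other loci peak at 21 and 24 nt, at 33.1% and 25.0% in cotyledon and 45.1% and 20.5% in callus, while the pooled 10 loci stay between 7.37% and 13.7% in cotyledon and between 7.99% and 16.0% in callus, where single libraries, with few reads, scatter more widely.

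Evenness, the Shannon entropy of the 9 length shares divided by its maximum, is 0 when all reads have 1 length and 1 when the lengths have equal shares. It ranged from 0.974 to 0.994 over the 10 loci, with a median of 0.990. Among the 5679 loci with at least 100 reads, the others had a median evenness of 0.736, and 558 of them (9.84%) were as even as Solyc02g070990.1, the least even of the 10. Solyc02g070970.1, the most even, lay at the 99.7th percentile of the other loci. These values rest mostly on cotyledon, which gave 10198 of the 11926 reads. In the callus libraries alone, where all 10 loci had at least 30 reads, evenness ranged from 0.908 at Solyc02g085950.5 to 0.988, with a median of 0.963. The top length then held up to 24.7% of the reads, at Solyc02g070950.1. Few reads lower evenness through counting alone, and Solyc02g085950.5 had 74 callus reads, so no tissue difference is read from this. Of the other loci with at least 30 callus reads, 27.6% were as even as Solyc02g085950.5. With at least 100, a minimum that 7 of the 10 met, 16.0% were as even as Solyc02g070990.1. An even spread over lengths was therefore not limited to these genes.

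**Figure D3:**
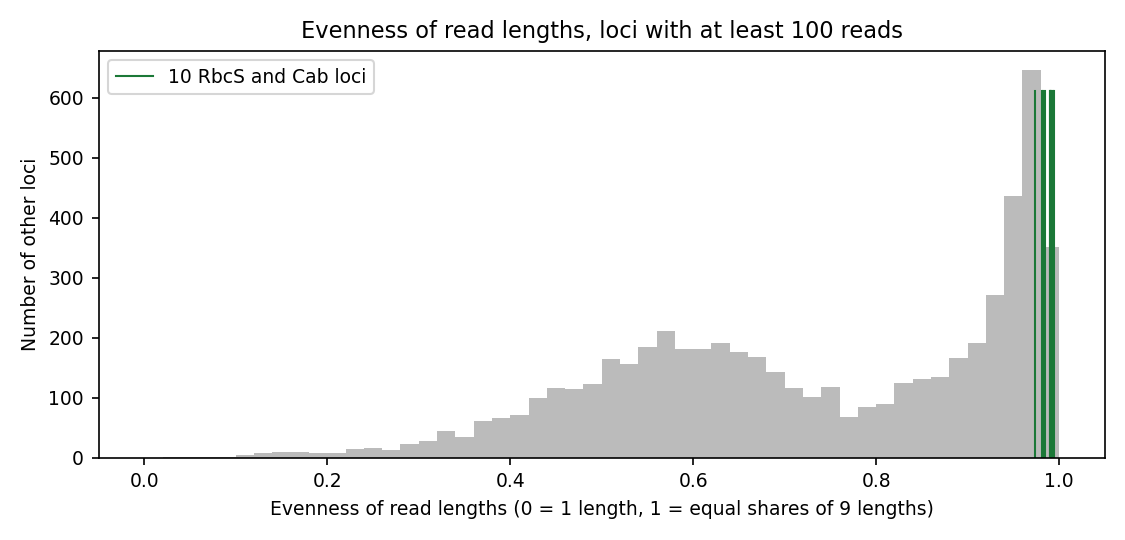
Number of loci (y axis) by evenness of read lengths (x axis) among loci with at least 100 reads over the 12 libraries. Green lines mark the 10 RbcS and Cab loci, which lie between 0.974 and 0.994, while the other loci have a median of 0.736.

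In cotyledon, the length profile of these loci differed between libraries in the same order as that of all other loci. Reads of 18 to 20 nt made up 25.1% of their reads in replicate 1, 44.1% in replicate 2 and 35.0% in replicate 3. At all other loci those shares were 7.70%, 14.4% and 11.5%, in the same order of libraries. The mean read length of the 10 loci was 22.3, 21.2 and 21.7 nt in these libraries, and 22.5, 21.8 and 22.1 nt at all other loci. The part of this library-wide shift in the profile of the 10 loci was not tested.

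In callus the reads were also spread over all lengths. The 1728 callus reads on the 10 loci were 16.0% of 21 nt, 11.5% of 24 nt and 7.99% of 18 nt, against 12.5%, 9.84% and 10.8% of 10198 reads in cotyledon. In single callus libraries 21 nt held 8.47% to 25.7% of the reads on the 10 loci and 40.6% to 51.6% of those on all other loci, so the ranges did not overlap. The change of 21-nt reads relative to the other lengths within a locus was tested with edgeR's quasi-likelihood test at 6440 loci. It was called, with an adjusted p under 0.05, at 2.28% of all loci and at 0 of the 10, with 0 at an unadjusted p under 0.05. The log2 change of the 21-nt to other-length ratio was above 0 at 9 of the 10 loci and ranged from -0.23 to 1.09, with a median of 0.50 against 0.18 over all loci tested (lowest adjusted p of the 10, 0.503). Callus held 21 to 300 reads per family and library, so small changes of length were not detectable at this depth.

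Split by length, the callus reads were few. The 10 loci had 14 to 106 callus reads each of 18 to 20 nt, 19 to 116 of 21 and 22 nt, 13 to 84 of 23 and 24 nt, and 4 to 94 of 25 and 26 nt. In edgeR fits of these 4 length classes, the median log2 change of the 10 over all callus was -4.48, -4.05, -4.14 and -3.80. The shares of all loci tested that fell were 29.6%, 24.3%, 22.3% and 32.3%. Most of the 10 entered these fits only through cotyledon, where they are high, so nothing is read from how many fell: the callus libraries alone would have kept 2, 2, 3 and 2 of them. In the authors' deposited table of DESeq2 comparisons by single length, the log2 fold changes of all 10 loci were below 0 at each of the 9 lengths and 3 times. In the authors' deposited table, each locus had an adjusted p under 0.05 at 4 to 9 of the 9 lengths at each time. The shares of all loci in that table that fell or passed were not counted, so nothing is read from these counts. For Solyc03g005760.1 at day 12, the authors' deposited table gave values between -5.21 and -3.32. For Solyc02g070970.1 at day 14 it gave values between -4.52 and -1.30. The smallest fall among the 10 loci and 3 times was -1.03, for Solyc02g070950.1 at 26 nt and day 16.

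The question of the time comparisons was how far reads on each locus had dropped at each callus time. All 10 loci passed the filter on low counts, which all 10 would also pass from the callus libraries alone, and fell at days 12, 14 and 16. Over all 6729 loci tested, 19.2% fell at day 12, 17.3% at day 14 and 17.5% at day 16. The 10 of 10 lies above these shares. The 10 were chosen with earlier results known and copies may share reads, so they are not 10 independent loci. In either direction, 33.5%, 31.3% and 30.9% of all loci were called. The median log2 change of the 10 was -5.33, -3.72 and -4.14, against 0.08, 0.10 and 0.11 over all loci tested. The largest adjusted p among the 10, from edgeR with p-values adjusted over all loci tested, was 2.08e-05, 0.000755 and 0.000605. Without the 3 callus libraries that stood apart, all 10 loci fell at each time, with medians of -4.95, -3.49 and -4.84, and without replicate 1 of cotyledon as well the medians were -5.00, -3.50 and -4.75. The 3 comparisons share the cotyledon libraries and so are not independent. Every cotyledon library lay above every callus library at 10 of the 10 loci, and at 17.6% of all loci tested.

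**Figure D4:**
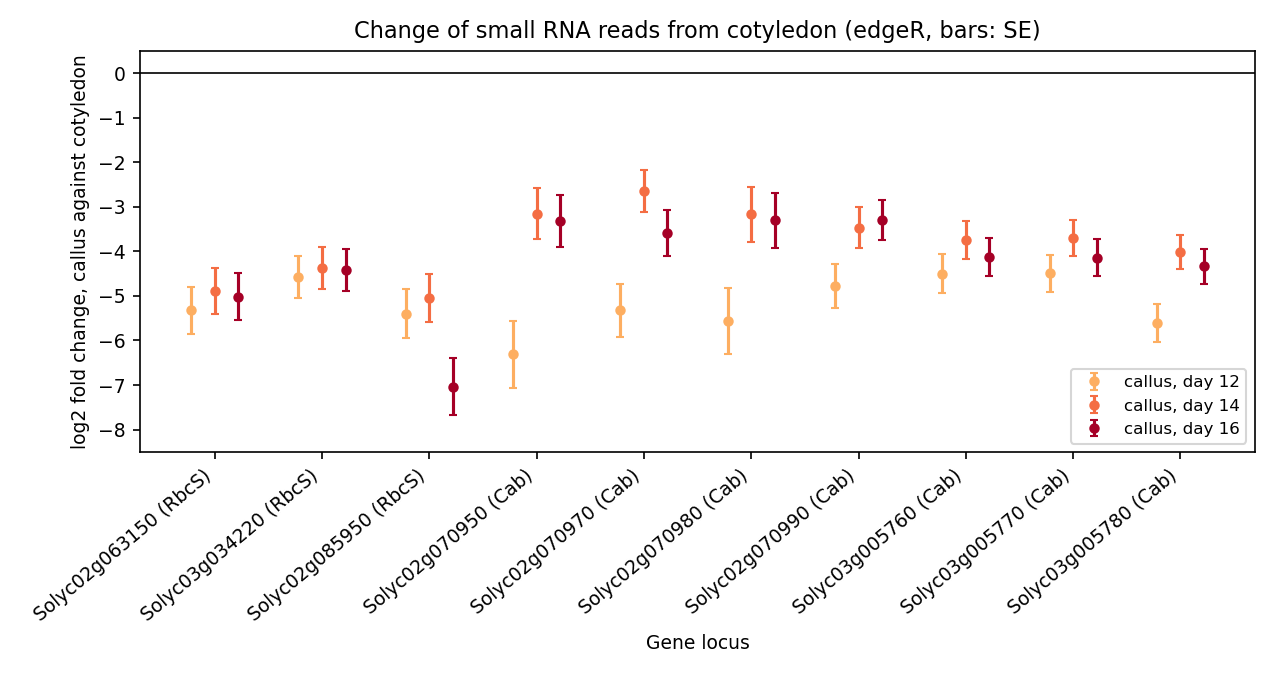
Log2 fold change of callus against cotyledon from edgeR (y axis) for each of the 10 loci (x axis) at days 12, 14 and 16, with bars for the SE. All values are below 0, from -2.64 at Solyc02g070970.1 on day 14 to -7.04 at Solyc02g085950.5 on day 16.

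Among the RbcS loci, Solyc02g063150.3 had 931, 898 and 834 CPM in the cotyledon libraries. In callus it had 43.4, 27.4 and 5.11 CPM at day 12. The day 14 libraries had 14.5, 48.7 and 23.6 CPM and those of day 16 had 11.1, 30.8 and 47.9 CPM. The lowest cotyledon library was 17.1 times the highest callus library. The log2 change was -5.32 at day 12, -4.90 at day 14 and -5.02 at day 16 (SE 0.53, 0.51 and 0.52; edgeR adjusted p = 8.05e-07, 1.84e-06 and 1.33e-06). Without replicate 2 of day 14, the fall at day 14 was 48.6-fold in place of 29.8-fold.

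Solyc03g034220.3, the RbcS locus with the most reads, had 1082, 1155 and 1005 CPM in cotyledon. Its callus means were 50.3 ± 26.1, 51.0 ± 33.1 and 55.2 ± 33.7 at days 12, 14 and 16 (SD, n = 3). Its log2 changes were -4.57, -4.38 and -4.41, the smallest fall among the 3 RbcS loci at each time (edgeR adjusted p = 1.49e-06, 2.46e-06 and 2.02e-06). Without replicate 2 of day 14, the fall at day 14 was 35.3-fold in place of 20.8-fold.

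Solyc02g085950.5, the third RbcS locus, fell furthest of all 10 at day 16. It had 563, 747 and 681 CPM in cotyledon. Callus held 20.8, 24.3 and 6.81 CPM at day 12 and 6.23, 24.3 and 29.5 CPM at day 14. At day 16 the values were 0, 1.92 and 14.6 CPM, from 0, 1 and 7 reads. The day 16 libraries were lower than most of the earlier callus libraries but overlapped them. The log2 change was -5.40, -5.05 and -7.04 with SE of 0.55, 0.54 and 0.64, and the edgeR adjusted p was 1.05e-06, 2.16e-06 and 3.71e-07. The size at day 16 rested on 8 reads, 7 of them in replicate 3. Without that library, 1 read of day 16 stood against 1041 cotyledon reads. The depth-scaled ratio was 0.00142, with a 95% exact interval of 3.59e-05 to 0.00792. The fitted fall was then 581-fold in place of 131-fold at day 16, and 91.1-fold in place of 56.8-fold over all callus. The interval covers counting error only.

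In the Cab cluster of chromosome 3, Solyc03g005760.1 carried the most reads of all 10 loci, with 1299, 1318 and 1226 CPM in cotyledon. Its day 12 libraries had 98.2, 62.3 and 32.4 CPM. Those of day 14 had 74.7, 116 and 100.2 CPM, and those of day 16 had 38.8, 48.0 and 152 CPM. All callus values lay far below cotyledon, and the callus times overlapped. Ranked by mean level over all loci, it was at place 86 in cotyledon and 1098 in callus. The log2 change was -4.50, -3.75 and -4.14 (SE 0.43, 0.42 and 0.43; edgeR adjusted p = 5.60e-07, 3.18e-06 and 1.24e-06). Without replicate 3 of day 16, the fall at day 16 was 29.8-fold in place of 17.6-fold.

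Solyc03g005770.4 had counts much like those of Solyc03g005760.1. Over the 108 counts by length and library, the counts of both loci correlated at r = 0.993, 31 were equal, and 92 were at least as high at Solyc03g005760.1. For comparison, Solyc03g005770.4 and the RbcS locus Solyc03g034220.3, of another family, correlated at r = 0.951 and had 11 equal counts. The treatment of reads that match several copies was not stated, so copies within a family may share reads and are not separate measurements. The log2 changes of Solyc03g005770.4 were -4.49, -3.70 and -4.14 at days 12, 14 and 16. Solyc03g005780.3 had 614, 599.8 and 462 CPM in cotyledon and 8.51 to 48.7 CPM in callus. Its log2 changes were -5.61, -4.02 and -4.34 with SE of 0.42, 0.38 and 0.39 (edgeR adjusted p = 6.78e-08, 4.58e-07 and 3.13e-07).

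The 4 Cab loci of chromosome 2 carried fewer reads than those of chromosome 3 in cotyledon, with library values of 171 to 306 CPM. Across libraries the values of the 4 loci overlapped. Within each cotyledon library Solyc02g070970.1 was lowest and Solyc02g070950.1 next, while the order of Solyc02g070980.1 and Solyc02g070990.1 changed. Solyc02g070950.1 had 275, 209 and 179.5 CPM in cotyledon and 5.66, 1.52 and 1.70 CPM at day 12, from 3, 1 and 1 reads. Its libraries had 10.4, 41.5 and 19.7 CPM at day 14 and 7.38, 7.69 and 58.3 CPM at day 16. The day 12 libraries were thus below those of day 14 and day 16. Its log2 change was -6.31, -3.16 and -3.31 (SE 0.75, 0.57 and 0.58; edgeR adjusted p = 5.60e-06, 0.000425 and 0.000317).

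Solyc02g070970.1 had 209.6, 195 and 171 CPM in cotyledon and 1.89, 9.12 and 3.41 CPM at day 12. It had 14.5, 53.0 and 21.6 CPM at day 14 and 5.54, 17.3 and 29.2 CPM at day 16, so the day 14 libraries were the only ones all above those of day 12. Its log2 changes were -5.33, -2.64 and -3.59. Those of Solyc02g070980.1 were -5.56, -3.17 and -3.30, and those of Solyc02g070990.1 were -4.78, -3.47 and -3.29, with edgeR adjusted p for these 3 loci of at most 0.000755. Single libraries moved these folds: without replicate 2 of day 12 the fall of Solyc02g070970.1 at day 12 was 70.7-fold in place of 40.1-fold. Without replicate 2 of day 14, the falls of Solyc02g070950.1, Solyc02g070970.1 and Solyc02g070980.1 at day 14 were 15.3-fold, 11.1-fold and 13.9-fold in place of 8.92-fold, 6.25-fold and 9.01-fold. Without replicate 3 of day 16, the falls of Solyc02g070950.1 and Solyc02g070980.1 at day 16 were 28.8-fold and 27.1-fold in place of 9.93-fold and 9.87-fold.

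Between callus times, edgeR called no change of these loci, while other settings called up to 3. In edgeR, 0 of the 10 passed at day 14 against day 12, where 0% of all loci did, and 5 had an unadjusted p under 0.05. At day 16 against day 12, 0 of the 10 passed, where 0.0594% of all loci did, and 6 had an unadjusted p under 0.05. Both shares of all loci are for the adjusted p. The share of all loci at an unadjusted p under 0.05 was not counted, so nothing is read from the 5 and the 6. The log2 differences had a median of 1.05 and lay between 0.20 and 3.16 for day 14. For day 16 the median was 0.82 and the lowest was -1.63, at Solyc02g085950.5. At day 14 the 2 largest were those of Solyc02g070950.1 (3.16, SE 0.84, edgeR adjusted p = 0.382) and Solyc02g070970.1 (2.68, SE 0.63, adjusted p = 0.314). DESeq2 called these 2 loci at day 14 and 0 at day 16, and edgeR without a filter called 3 at day 14 and 2 at day 16. Without the libraries that stood apart, edgeR called Solyc02g085950.5 at day 16 against day 12 (adjusted p = 0.0415). The share of all loci called in each of these settings was not counted, so these calls have no background beside them. The calls between callus times therefore depend on the tool, the filter and the libraries.

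Cab reads made up more of the remaining reads in most callus libraries than in cotyledon. The ratio of Cab to RbcS reads was 1.60, 1.40 and 1.37 in the cotyledon libraries. In callus it was 1.92, 1.25 and 2.33 on day 12. The day 14 libraries had ratios of 4, 2.65 and 3.72 and the day 16 libraries had ratios of 3.13, 2.39 and 3.29. Every library of days 14 and 16 lay above cotyledon, whereas those of day 12 overlapped it. Over all callus, the log2 change was -4.45 to -5.83 at the RbcS loci and -3.84 to -4.66 at the Cab loci, so that the ranges of the 2 families overlapped. The difference between the families was not tested.

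The identifiers numbered around the Cab clusters gave a local comparison, though they may include photosynthesis genes. Solyc02g070940 is also on the recalled list of photosynthesis identifiers described below. Of 10 other identifiers between Solyc02g070900 and Solyc02g070999 or between Solyc03g005700 and Solyc03g005799, 5 passed the filter. Over all callus, 2 of these fell and 0 rose, while 23% of all loci tested fell and 40.5% were called in either direction. Solyc02g070940.1 had 127 to 192 reads per cotyledon library and 9 to 73 per callus library, with an evenness of 0.987, and its log2 change was -2.83 (SE 0.26, edgeR adjusted p = 9.95e-08). At Solyc02g070910.3, 24 nt held 41.2% of reads. Its cotyledon libraries had 13 to 22 reads and its callus libraries 8 to 23, and the log2 change was -0.85 (SE 0.32, edgeR adjusted p = 0.0433). That call was lost with DESeq2 (adjusted p = 0.0720), without the filter and without most single libraries, with adjusted p between 0.0105 and 0.237 over the alternatives. The other 3 did not pass, with log2 changes of -1.06, -0.86 and 0.44.

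A list of 32 further identifiers, recalled as nuclear photosynthesis genes and not annotated in the files, was examined by counts only. Of these 29 were in the table, among them Solyc02g070940, and 28 passed the filter. All 28 fell over all callus, where 23% of all loci tested did. At each of days 12, 14 and 16, 28 fell, against 19.2%, 17.3% and 17.5% of all loci tested. Some had few callus reads, with a callus mean as low as 2.88 CPM against 38.6 CPM in cotyledon. Such loci entered the fits only through cotyledon, where they are high, so nothing is read from how many fell. How many the callus libraries alone would have kept was not counted. The median log2 change of the 28 over all callus was -3.47, against -4.19 for the 10 RbcS and Cab loci and 0.10 for all loci tested. The 25 with at least 100 reads had a median evenness of 0.983 and a range of 0.915 to 0.996. Some of them were thus less even than the least even of the 10 loci, at 0.974.

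The 2 loci whose pattern was most like the mean of the 10, by Pearson's r of log2 values over the 12 libraries among 6695 loci with a mean of at least 10 CPM, both belonged to that list. Solyc03g115900.5 (r = 0.984) had 117, 178 and 230 as the lowest, median and highest reads in cotyledon and 6, 13 and 27 in callus. Solyc12g011450.2 (r = 0.981) had 95, 125 and 146 in cotyledon and 5, 11 and 25 in callus. Both had 22 nt as the most frequent length, with 17.6% and 16.4% of their reads. The 12 libraries fall into cotyledon and callus, which differ strongly at all of these loci. Over the 9 callus libraries alone, r was 0.881 for Solyc03g115900.5 and 0.840 for Solyc12g011450.2.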

How the data were processed

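Small RNA reads of 12 libraries were analysed, 3 each of cotyledon (day 0) and callus (days 12, 14 and 16), grouped and numbered by sample title. The authors deposited raw counts per gene locus in 108 columns, 1 per length (18 to 26 nt) and library, per the file headers, and none of these columns was left unused (0). The tools were fastp, Bowtie and DESeq2, per the submitters' processing notes. Versions, genome build and the treatment of reads with several loci: not given in the sources used here. Per the labels' protocols, adapters were ligated with T4 RNA ligases and fragments were selected on a gel, so the lengths seen also depend on that selection. The authors also deposited log2 fold changes and p-values per length, per the file headers, used here only for the 10 loci. Their deposited TPM of gene reads gave library totals of 2769024 to 4799134.

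Counts were summed over lengths and tested with edgeR 4.0.16 (TMM, filterByExpr, quasi-likelihood F test, Benjamini-Hochberg over 6729 loci at 0.05) over all 12 libraries. The SE is the log2 change over the square root of F. The 21-nt test had a library term and a minimum of 10 reads of each class. Alternatives were DESeq2 1.42.0, no filter, scaling to library totals, a replicate block, only the groups compared, and libraries left out. No replicate pair agreed within counting noise (chi-square per degree of freedom 3.61 to 12.4). All 10 loci were named, with at most 2 neighbours per direction and the 2 most alike loci. The loci, lists and tests were chosen with earlier results of these data known. There were no molecular identifiers, so reads are not independent molecules and intervals cover counting error only.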

Additional observations from a re-analysis of the deposited data

How the results depend on the processing

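The count of 10 of 10 loci that fell at day 12, 14, 16 and over all callus was also 10 with DESeq2, without a filter, with library totals as the scale, with only the groups compared, without the libraries that an earlier pass found apart, and without any 1 library (10 to 10). Of 798 recomputed changes of single loci, 0 reversed and 773 kept their side of the threshold, and the other 25, all of Solyc02g070910.3, lost the call. With library totals as the scale, the median log2 change of all loci moved from 0.10 to -0.24 at day 14 and from 0.11 to -0.24 at day 16, and that of the 10 loci to -4.06 and -4.48. Between callus times, where edgeR called 0 loci, DESeq2 called 2 at day 14 and the fit without a filter called 3 at day 14 and 2 at day 16. Without the 3 callus libraries found apart, or these and 1 cotyledon library, 1 locus (Solyc02g085950.5) was called at day 16 against day 12. The cause of these differences was not tested, and the share of all loci called in these settings was not counted. The share of other loci as even as the least even of the 10 was 4.999% with a minimum of 30 reads. A minimum of 1000 reads was met by 6 of the 10. The least even of these was Solyc02g085950.5, which raised the limit from 0.974 to 0.983. With that stricter limit the share was 4.08%. Without the 3 callus libraries found apart, and without these and 1 cotyledon library, settings added after seeing the data for the shares and lengths, it was 8.505% and 8.16%, the fold of the summed share was 18.8 and 18.5, and the largest length share was 13.7% and 14.0%. That fold was 24.1 with library totals, and 17.4 to 21.4 without 1 library. The largest length share was 13.3% to 13.7% without 1 library, and the 21-nt balance was called at 0 loci under each alternative. With the replicate number as a block, 10 loci fell in each comparison with cotyledon, 0 changed between callus times, and the 21-nt balance changed at 0. No pairing of libraries by number was seen, though a shared culture could go unseen with 3 libraries per group. Deviations from the group means correlated at -0.25 to 0.20 between libraries of the same number. Of 12 libraries, 4 were closest to their own number. Depth limits the callus values, with 0 to 81 reads per locus and library.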

Other observations

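Loci with equally even read lengths moved in both directions. There were 556 other loci that passed the filter, had at least 100 reads and were as even as the least even of the 10. Of these, 155 (27.9%) fell and 106 (19.1%) rose over all callus, with a median log2 change of 0.20. Among 5078 less even loci, 22.9% fell and 18.2% rose, with a median of 0.08. At day 12 alone, 138 of the even loci (24.8%) fell and 129 (23.2%) rose, with a median of 0.40. Of the less even loci, 19.4% fell and 14.2% rose at day 12. At day 16, 146 of the even loci (26.3%) fell and 63 (11.3%) rose, against 17.0% and 14.2% of the less even. Loci are not independent replicates, and the class was set after the tables were seen.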
